A study of Mus musculus with 6 samples.

Results

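The genes described here are 10 genes known best from heart muscle, namely Actc1, Myh6, Tnnt2, Tnni3, Mybpc3, Myl4, Myl7, Ryr2, Gata4 and Nppb. They were chosen by name after their levels on these arrays had been seen, in particular the brightness of several of them on the array labelled PBS adipose, and their levels are therefore given as a description without a test. All probes carrying one of the 10 symbols in the platform annotation were taken, which gave 13 probes for 10 of the 16675 gene symbols on the array. Actc1, Ryr2 and Gata4 had 2 probes each, and the other 7 genes had 1.

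The samples came from ob/ob mice (B6.V-Lepob/J), which lack functional leptin, are obese and respond poorly to insulin. After a 4 h fast the mice were given by mouth either MCSE, an aqueous extract of Momordica charantia (bitter melon) seeds, or PBS, and 15 min later an intraperitoneal glucose dose of 1 g/kg. Muscle, adipose tissue and liver were taken 4 h after the glucose. The groups were PBS muscle, MCSE muscle, PBS adipose, MCSE adipose, PBS liver and MCSE liver, all of the same strain and all given glucose, with 1 one-colour array in each. The labels used here gave no age, did not say which muscle or fat depot was dissected, and did not say whether RNA of several mice was combined. With 1 array a group, no difference between arrays had a replicate check.

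Heart and skeletal muscle contract with the same machinery, thin filaments of actin, tropomyosin and troponin pulled by thick filaments of myosin, but build it from different gene copies. Cardiac actin (Actc1), the alpha myosin heavy chain (Myh6), cardiac troponins T and I (Tnnt2 and Tnni3) and cardiac myosin-binding protein C (Mybpc3) make the sarcomere of the adult mouse heart, and Myl4 and Myl7 are the light chains of the atria. Ryr2 is the channel that releases calcium from the sarcoplasmic reticulum of heart cells, Gata4 is a zinc finger transcription factor of heart development that binds GATA sequences, and Nppb encodes B-type natriuretic peptide, a hormone that stretched heart muscle secretes. Actc1, Tnnt2 and Myl4 are also made by developing skeletal muscle.

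The promoters of 4 of these genes are shown because the first 3 belong to sarcomere genes that followed a common order over the arrays, and the fourth to Myl7, which did not. Each is the RefSeq window of 300 bases on build GRCm38.p6, from 250 bases before the annotated start to 50 after it, on the strand of the gene. Capitals mark matches, on either strand, to the GATA element GATAA, the TATA box TATAAA, the MCAT element CATTCC, the CArG box that serum response factor binds, or the MEF2 site. Actc1 lies on chromosome 2 (chr2:114052826-114053125, minus strand), Tnnt2 on chromosome 1 (chr1:135836084-135836383, plus strand; the upstream of its 2 windows), Tnni3 on chromosome 7 (chr7:4522479-4522778, minus strand) and Myl7 on chromosome 11 (chr11:5898733-5899032, minus strand).
Actc1: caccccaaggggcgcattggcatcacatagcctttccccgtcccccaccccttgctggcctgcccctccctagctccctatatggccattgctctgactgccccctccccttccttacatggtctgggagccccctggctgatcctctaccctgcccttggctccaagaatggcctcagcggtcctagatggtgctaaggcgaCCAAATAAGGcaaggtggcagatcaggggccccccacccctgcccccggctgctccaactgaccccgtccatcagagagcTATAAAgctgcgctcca
Tnnt2: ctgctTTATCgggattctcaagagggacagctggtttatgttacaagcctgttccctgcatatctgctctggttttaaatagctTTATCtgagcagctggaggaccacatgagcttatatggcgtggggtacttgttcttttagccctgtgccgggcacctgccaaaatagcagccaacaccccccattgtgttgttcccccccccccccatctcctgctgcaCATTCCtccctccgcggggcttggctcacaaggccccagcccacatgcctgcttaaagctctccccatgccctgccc
Tnni3: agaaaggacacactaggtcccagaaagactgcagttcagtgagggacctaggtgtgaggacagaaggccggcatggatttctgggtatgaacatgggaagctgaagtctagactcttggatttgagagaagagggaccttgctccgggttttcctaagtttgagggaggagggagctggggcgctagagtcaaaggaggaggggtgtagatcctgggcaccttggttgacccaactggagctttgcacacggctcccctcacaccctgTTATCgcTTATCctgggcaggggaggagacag
Myl7: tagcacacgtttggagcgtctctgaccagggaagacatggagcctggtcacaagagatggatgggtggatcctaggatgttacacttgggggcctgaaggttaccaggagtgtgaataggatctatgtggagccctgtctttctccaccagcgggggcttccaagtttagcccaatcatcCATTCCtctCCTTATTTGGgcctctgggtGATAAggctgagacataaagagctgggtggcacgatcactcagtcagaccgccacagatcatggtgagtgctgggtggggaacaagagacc

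The windows of Actc1 and Myl7 each held a CArG box, beginning at -47 and -61 relative to the annotated start, and CArG boxes were found in 2 of the 10 windows of these genes against 1.63% of all 32851 windows of this length. The Myl7 window also held an MCAT element at -70 and a GATAA match at -41. A GATAA match was found in 5 of the 10 windows (25.4% of all windows), CATTCC in 4 (14.7%), TATAAA in 3 (13.6%), the E-box CANNTG in 9 (72.3%) and a MEF2 site in 1, that of Mybpc3 (3.19%). The 10 windows covered 9 of the 10 genes, and 1 pair of matches to different motifs overlapped, an E-box and a GATAA match of Nppb. These matches describe letters in the windows and do not show binding.

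Levels are log2 of the deposited normalized intensity, with values under the 5th percentile of all values raised to it, which is 7.74 on the log2 scale. The median of all probes lay at 8.95 on each array and the upper quartile at 10.20. A probe is called measured in a tissue when it reached that median on at least 1 of the 2 arrays with that label. Levels of different probes are not set against each other, since probes differ in their response.

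The labels of the 6 arrays were first checked against marker genes. Fast-fibre genes, the contractile and metabolic genes of fast skeletal muscle, lay at medians of 15.85 (PBS) and 15.79 (MCSE) on the muscle arrays, and of 9.04 to 9.44 on the other 4. The median of white adipocyte genes was 12.55 on PBS muscle and 12.73 on MCSE muscle. It was 14.70 on MCSE adipose, 14.54 on PBS liver and 14.77 on MCSE liver, but 8.996 on PBS adipose. On that array Lep, the leptin gene, lay at 9.05 and Cidec, a lipid droplet gene, at 8.53. That of kidney genes was 13.11 on MCSE adipose, 11.91 on PBS liver and 13.19 on MCSE liver. Hepatocyte genes lay at medians of 12.29 on PBS liver and 11.87 on MCSE liver, with the albumin gene Alb at 15.79 and 15.36, and also at 11.87 on MCSE adipose, against 9.01 to 9.77 on the other 3. The MCSE adipose and MCSE liver arrays correlated at 0.982 over all probes, and the PBS adipose array at 0.307 to 0.517 with each other array. The median of proteasome genes, which every cell uses, was 8.87 on PBS adipose and 12.63 to 13.09 elsewhere, so "adipose" and "liver" below are used as labels only.

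**Figure D1:**
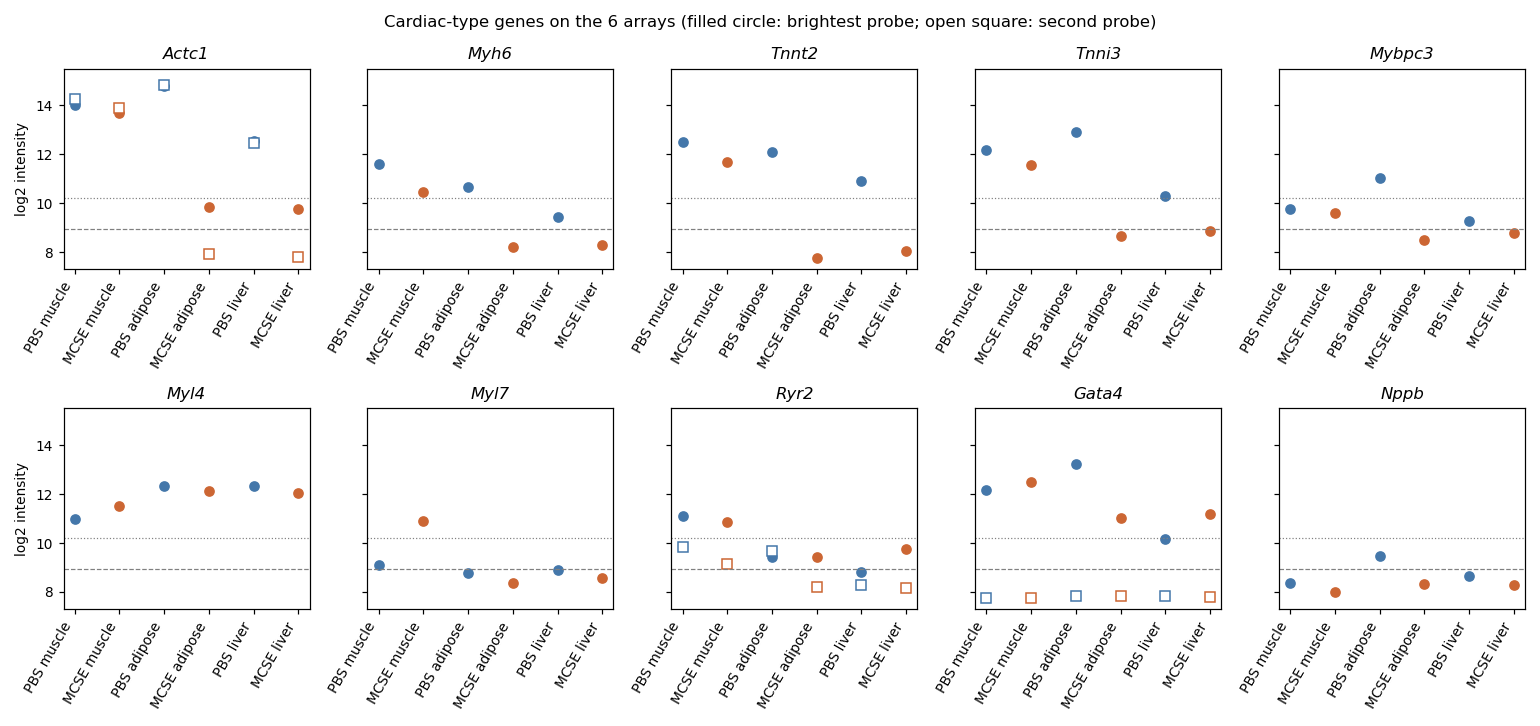
Log2 intensity (vertical axis) of the 10 cardiac-type genes on the 6 arrays (horizontal axis), with PBS in blue and MCSE in orange; filled circles are the brightest probe of a gene, open squares its second probe, the dashed line is the median of all probes (8.95) and the dotted line the upper quartile (10.20). Actc1, Myh6, Tnnt2, Tnni3 and Mybpc3 are higher on the 2 muscle arrays and the PBS adipose array than on either liver array, and lowest on the MCSE adipose and MCSE liver arrays.

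Actc1, Myh6, Tnnt2, Tnni3 and Mybpc3, the heart sarcomere genes other than the atrial light chains, followed a common order over the arrays. Each was higher on both muscle arrays and on PBS adipose than on PBS liver, and lower still on MCSE adipose and MCSE liver. The step from PBS muscle to PBS liver was small for Mybpc3 (-0.49) and ran from -2.17 to -1.45 for the other 4. Over the 6 arrays the 10 pairs of these 5 genes correlated at 0.75 to 0.98 (Pearson, n = 6 arrays that include pairs of the same label), which describes a pattern for which the genes were chosen.

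Actc1, the actin of heart thin filaments, lay at 14.001 on PBS muscle, 13.69 on MCSE muscle, 14.79 on PBS adipose, 12.55 on PBS liver, 9.84 on MCSE adipose and 9.78 on MCSE liver. Its second probe gave the same order, at 14.25, 13.88, 14.82 and 12.44 on the first 4 of these arrays and at 7.93 and 7.81 on the last 2. Both probes were thus highest on the PBS adipose array, and the second lay just above the 7.74 floor on the MCSE adipose and MCSE liver arrays. Actin genes are close copies of each other and the probe sequences were not used here, so the part of related transcripts in the signal was not tested. Acta1, the skeletal actin gene, lay at 15.87 on both muscle arrays and at 8.82 on the PBS adipose array, where Actc1 was highest.

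Tnnt2, which anchors the troponin complex to tropomyosin, lay at 12.52 on PBS muscle, 11.67 on MCSE muscle, 12.08 on PBS adipose, 10.91 on PBS liver, 8.05 on MCSE liver and 7.76 on MCSE adipose. Tnni3, the inhibitory troponin of the heart, lay at 12.19, 11.56, 12.91, 10.29, 8.84 and 8.68 on the same arrays. Both troponin genes were in the upper quartile of probes on 4 arrays and below the median on the MCSE adipose and MCSE liver arrays. They differed in which array was highest, PBS muscle for Tnnt2 and PBS adipose for Tnni3.

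Myh6, the fast myosin motor of the heart, lay at 11.61 on PBS muscle, 10.46 on MCSE muscle, 10.68 on PBS adipose, 9.44 on PBS liver, 8.30 on MCSE liver and 8.19 on MCSE adipose. Mybpc3, which links myosin to actin and tunes cross-bridge cycling, lay at 9.75, 9.59, 11.03, 9.27, 8.79 and 8.51 on the same arrays. Mybpc3 reached the upper quartile on the PBS adipose array alone. It stood 1.27 above its next highest array there, the only 1 of the 10 genes that was at least 2-fold brighter on the PBS adipose array than on each other array. Of all 13862 genes measured on any array, 20.1% were, so this count is not a feature of the cardiac-type genes. Likewise 5 of the 10 genes (Actc1, Tnni3, Mybpc3, Gata4 and Nppb) had their highest level on the PBS adipose array, against 39.3% of all measured genes.

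The light chains of the atria did not follow that order. Myl4, the essential light chain, was in the upper quartile on all 6 arrays, at 10.97 on PBS muscle, 11.53 on MCSE muscle, 12.32 on PBS adipose, 12.35 on PBS liver, 12.06 on MCSE liver and 12.11 on MCSE adipose. It was lowest on the 2 muscle arrays and differed by at most 0.29 among the other 4. Myl7, the regulatory light chain, lay at 10.91 on the MCSE muscle array and at 9.12, 8.76, 8.88, 8.56 and 8.36 on PBS muscle, PBS adipose, PBS liver, MCSE liver and MCSE adipose. It was in the upper quartile on 1 array and near or below the median of all probes on the other 5.

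Ryr2, the calcium release channel, was highest on the muscle arrays on its brighter probe, at 11.09 on PBS muscle and 10.86 on MCSE muscle, against 9.42 on PBS adipose, 9.43 on MCSE adipose, 9.74 on MCSE liver and 8.83 on PBS liver. Its second probe lay at 9.85 on PBS muscle, 9.13 on MCSE muscle and 9.66 on PBS adipose, and between 8.14 and 8.30 on the other 3. The probes disagreed on the PBS adipose array, which lay 1.67 below the PBS muscle array on the brighter probe and 0.19 below it on the other.

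Gata4, the transcription factor, lay at 13.23 on PBS adipose, 12.47 on MCSE muscle, 12.18 on PBS muscle, 11.17 on MCSE liver, 11.04 on MCSE adipose and 10.18 on PBS liver. Its second probe lay between 7.74 and 7.85 on the 6 arrays, at or just above the floor, so the Gata4 signal rests on 1 of 2 probes. Nppb, the natriuretic peptide gene, was above the median of all probes on the PBS adipose array alone (9.48), and lay between 8.01 and 8.66 on the other 5. No level of Nppb reached the upper quartile.

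By array, 7 of the 10 genes were in the upper quartile on PBS muscle, 8 on MCSE muscle, 7 on PBS adipose, 4 on PBS liver, and 2 each, Myl4 and Gata4, on MCSE adipose and MCSE liver. On at least 1 array of a label, 8 reached it for muscle, 7 for adipose and 5 for liver. Of all 16675 genes, 5976, 8489 and 6501 did. The members were chosen with their levels known, so nothing is read from these counts. All 10 genes differed by at most 0.31 between the MCSE adipose and MCSE liver arrays, which, as above, were nearly alike over all probes.

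Related genes that serve skeletal muscle were set beside them, each gene compared only with itself on another array. Of 23 paralogues listed, 22 were found. The PBS adipose array differed from the PBS muscle array by -1.67 to 1.35 for the 10 cardiac-type genes, with a median of 0.75 and 6 of 10 above 0, where the median of all measured genes was 0.10. The members were chosen with the PBS adipose levels known. Nothing is therefore read from their contrast with all genes or with the paralogues. Of the 22 paralogues, 14 lay below 0 and 8 above. The 9 lowest, grouped here by this value, were Acta1, Myh1, Myh2, Myh4, Tnnt3, Mybpc2, Myl1, Mylpf and Ryr1, between -7.84 (Myh1) and -4.80 (Ryr1), and the others lay between -2.30 and 1.56. Among these were the smooth muscle actins Acta2 (-0.45) and Actg2 (0.56), Myl3 (-0.48), Ryr3 (0.45), Nppc (0.27), Gata5 (0.69) and Gata6 (1.26). The Acta2 value belongs to the brightest of its 4 probes. Another Acta2 probe fell from 14.85 on PBS muscle to 9.99 on PBS adipose. The remaining Acta2 probes were dim, at 8.31 and 9.03 on PBS muscle and 8.44 and 8.24 on PBS adipose.

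Slow-fibre paralogues lay on both sides. Myh7, the slow and cardiac beta myosin, was at -2.30, Mybpc1 at -1.70 and Tnnt1 at -1.63, whereas Tnni1, slow troponin I, was at 1.56 and Myl2, the ventricular and slow regulatory light chain, at 1.25. Tnni2, the fast troponin I, was at 1.24, but its only probe was dim on both muscle arrays (8.54 and 8.42). The Myh1 value belongs to its brighter probe, and its second probe lay at 11.59 on PBS muscle and 11.49 on PBS adipose. The second Myh7 probe went the other way from the brighter one, from 8.40 on PBS muscle to 9.09 on PBS adipose.

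**Figure D2:**
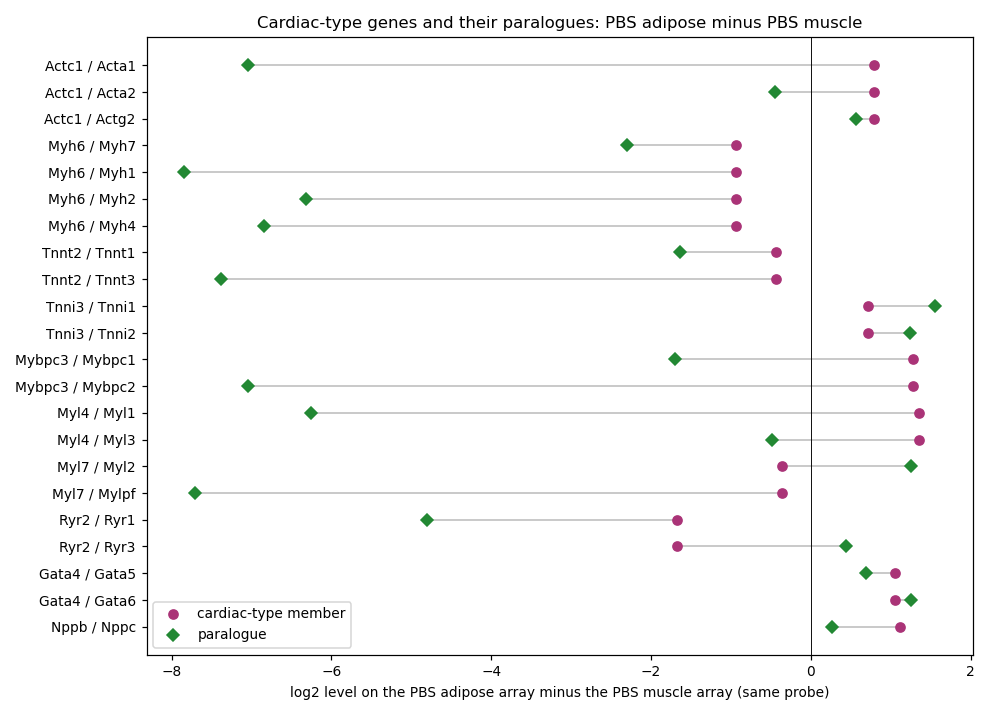
Log2 level on the PBS adipose array minus that on the PBS muscle array (horizontal axis) for each cardiac-type gene (circles) and each of its paralogues (diamonds), by the brightest probe of each gene, with 1 array a group. The cardiac-type genes lie between -1.67 and 1.35, the 9 lowest paralogues between -7.84 and -4.80, and the remaining paralogues, whose range overlaps that of the cardiac-type genes, between -2.30 and 1.56. The cardiac-type genes were chosen with the PBS adipose levels known.

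Other genes of heart muscle, from lists drawn up with earlier results of these data known, were then read on the PBS adipose array. Of 18 shared sarcomere genes, 11 were in the upper quartile there, against 17 on each muscle array. These are genes that heart shares with skeletal muscle, mostly of the sarcomere, with Mb, Des and Cryab among them. Myl2 lay at 15.15 on PBS adipose, 13.90 on PBS muscle and 14.52 on MCSE muscle, while Csrp3, a Z-disc protein, lay at 9.86, 12.56 and 14.40. Calcium-handling and conduction genes had 6 of 16 in the upper quartile on PBS adipose, 7 on PBS muscle and 8 on MCSE muscle. Casq2, the calcium store of the heart reticulum, lay at 11.41, 11.39 and 11.80, and Pln, the inhibitor of its calcium pump, at 11.12, 12.41 and 11.01. Sln, the atrial pump inhibitor, was at or near the floor on all arrays (7.74 to 8.18).

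Among 12 cardiac transcription factors on the array, 7 were measured on any array, and 4 of those were at least 2-fold brighter on PBS adipose than on every other array, where 20.1% of all measured genes were. These were Tbx5 (12.71), which patterns limb and heart, Hand1 (11.82), Gata6 (12.01), a relative of Gata4, and Zfpm2 (9.62), a partner of GATA factors. Nothing is read from this count, since the list was drawn up with results known and Zfpm2 was measured through the PBS adipose array alone. Nkx2-5 and Tbx20, which define the heart lineage, were at or near the floor on all arrays, between 7.74 and 8.20 for Nkx2-5 and between 7.74 and 8.02 for Tbx20. Nppa, the atrial peptide gene, was not matched to a probe. Of 12 genes of developing or denervated muscle, 3 were in the upper quartile on PBS adipose, 4 on PBS muscle and 5 on MCSE muscle. Chrng, the fetal subunit of the acetylcholine receptor, lay at 12.73, 11.37 and 11.10 on these arrays. Myh8, the perinatal myosin, lay at 12.58, 11.98 and 12.37. Their other probes were dimmer on PBS adipose, at 8.71 for Chrng and 11.23 and 8.47 for Myh8.

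Genes of other cell types varied over the same arrays. Of 10 smooth muscle genes, 5 were in the upper quartile on PBS adipose and 6 and 7 on the muscle arrays, with median levels of 10.56, 10.47 and 11.02. Myh11, the smooth muscle myosin, lay at 13.69 on PBS adipose, 11.99 on PBS muscle and 12.12 on MCSE muscle. Of 8 lung epithelium genes, 2 were in the upper quartile on each of the 6 arrays, and on PBS adipose these were Sftpa1 at 14.42 and Napsa at 13.52, while Sftpc, the defining surfactant gene, was at 7.98. Of 8 brown adipocyte genes, 4 were in the upper quartile on PBS adipose, Elovl3 (12.79), Cox7a1 (11.82), Ppara (11.00) and Cox8b (10.33), while Ucp1, the defining uncoupling protein gene, lay at 8.44. Elovl3 and Ppara were at least 2-fold brighter there than on every other array, whereas Cox7a1 and Cox8b, which muscle also uses, were brighter on both muscle arrays. The part of these cells in the levels of the cardiac-type genes was not tested, and in such tissue RNA more cells of a type cannot be told apart from more RNA per cell.

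**Figure D3:**
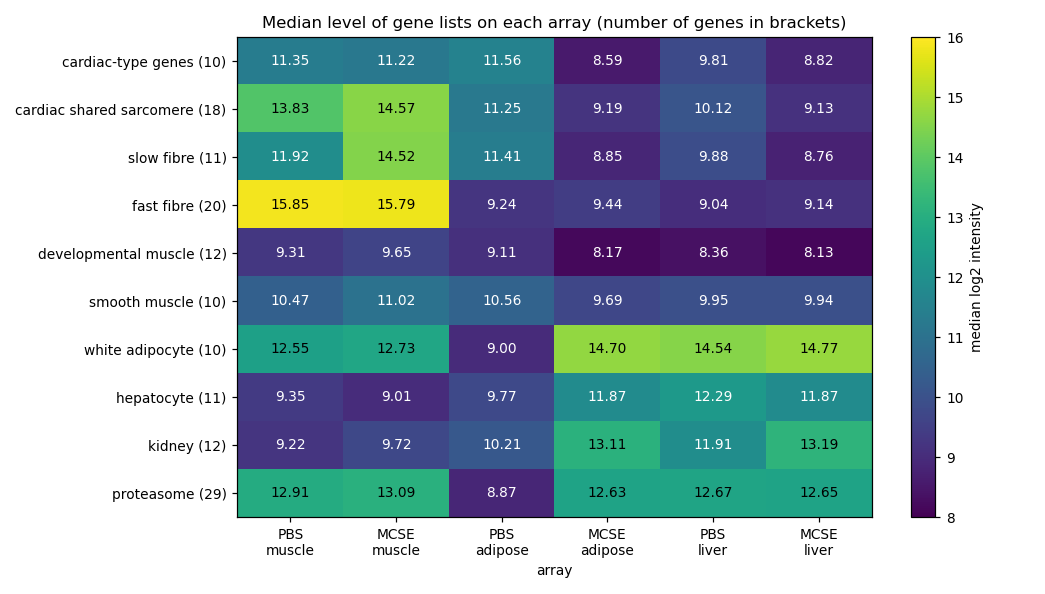
Median log2 intensity (colour and printed value) of 10 gene lists (rows, with the number of genes on the array in brackets) on the 6 arrays (columns). The cardiac-type genes have medians of 11.35, 11.22 and 11.56 on PBS muscle, MCSE muscle and PBS adipose, whereas the fast-fibre genes fall from 15.85 and 15.79 to 9.24. The cardiac-type genes and the lists were chosen with earlier results of these data known.

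The 8 genes whose profile over the 6 arrays was most like the mean profile of the cardiac-type genes were Trim35, Fsd2, Kcnn1, Cacna1g, Morc2a, Mbd6, Cdc34 and Kcnj10, with Pearson correlations of 0.985 to 0.995 over 6 arrays. They were taken from 4441 genes outside the cardiac lists that reached the upper quartile on some array and varied by an SD of at least 1. Trim35 lay at 12.68 on PBS muscle, 12.43 on MCSE muscle, 13.57 on PBS adipose, 10.63 on PBS liver, 9.27 on MCSE adipose and 9.52 on MCSE liver. Of these 4441 genes, 182 correlated at 0.90 or more with that mean profile of the 10 members.

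The study set MCSE against PBS within each labelled tissue, and a difference below is the log2 level with MCSE less that with PBS. Where a gene had 2 measured probes, their differences scattered with an SD per probe of 0.517 for the muscle label, 0.611 for the liver label and 1.74 for the adipose label. This SD carries no spread between mice.

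In muscle the cardiac-type genes differed little as a group, with Myl7 higher and Myh6 lower. Myl7 went from 9.12 to 10.91, a difference of 1.79 (3.46-fold) and the 71st highest of 10711 measured genes. Myh6 went from 11.61 to 10.46, a difference of -1.15 (2.21-fold lower). Both differences exceeded the SD per probe. These were the 2 members past 2-fold of the 9 measured in muscle, 1 in each direction, while over all measured genes 3.9% were higher and 1.88% lower by that much.

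Tnnt2 (-0.84) and Tnni3 (-0.63) were lower by more than the SD per probe but by less than 2-fold. Myl4 was at 0.56, and Actc1 (-0.31 and -0.37 on its 2 probes), Mybpc3 (-0.17) and Gata4 (0.29) lay within it. Ryr2 was at -0.22 on its brighter probe and -0.72 on the other. Over all 10 genes, the dim Nppb included, the median was -0.27, and over all 16675 genes without a filter -0.03.

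Slow-fibre genes were higher with MCSE on this pair, 7 of 11 by 2-fold or more and 11 of 11 above 0 (list median 1.21). Some were slow copies of members that were lower. Myh7 was 3.54 higher with MCSE beside -1.15 for Myh6, Tnnt1 3.84 higher beside -0.84 for Tnnt2, and Tnni1 3.84 higher beside -0.63 for Tnni3. The second Myh7 probe, which was dim, gave 0.16. The slow light chains lay on the same side as the atrial ones, Myl3 at 1.21 beside 0.56 for Myl4 and Myl2 at 0.62 beside 1.79 for Myl7. Of the 18 shared sarcomere genes, 4 were higher by 2-fold or more and 0 lower (list median 0.27), among them Csrp3 (1.84), Lmod2 (1.58) and Myl3 (1.21). Of 9 measured calcium-handling genes, Atp2a2, the calcium pump, was 1.04 higher and Pln was at -1.40. Of 5 measured cardiac transcription factors, Mef2c was at least 2-fold lower (-1.37) and 0 were higher. Over all measured genes 3.9% were higher and 1.88% lower by 2-fold. The lists were drawn up with results known, so nothing is read from these counts.

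Genes of other tissues moved on the muscle pair as well. Of 10 measured kidney genes, 2 were at least 2-fold higher, with Kap at 3.20, and of 8 measured hepatocyte genes 1 was lower, Alb at -1.91. These lists too were chosen with results known, so nothing is read from their counts. The part of kidney or liver RNA in the muscle differences was not tested.

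**Figure D4:**
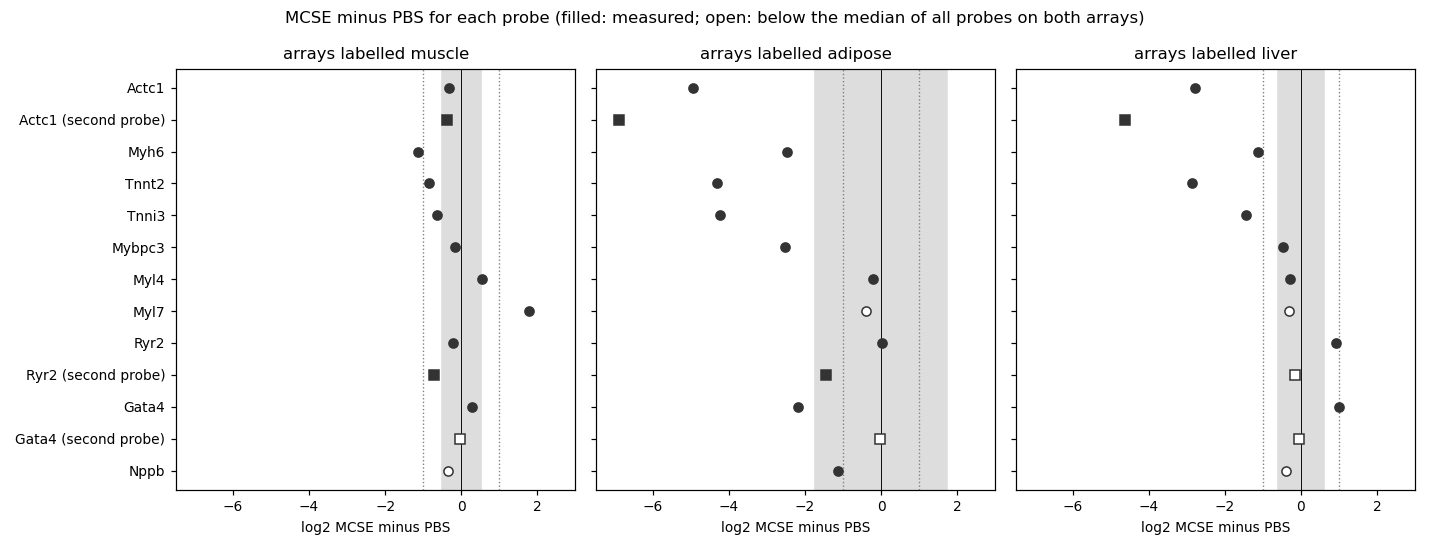
Log2 MCSE minus PBS (horizontal axis) of each of the 13 probes (rows) on the arrays labelled muscle, adipose and liver, with 1 array a group; the grey band is 1 SD per probe on either side of 0, dotted lines mark 2-fold, filled symbols are measured probes, open ones are probes under 8.95 on both arrays, and squares are second probes. Myl7 stands at 1.79 in muscle, and Tnnt2 and Actc1 at -2.86 and -2.77 on the liver label.

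On the arrays labelled liver, 4 of the 5 heart sarcomere genes described above, Actc1, Tnnt2, Tnni3 and Myh6, were lower by at least 2-fold with MCSE. Actc1 went from 12.55 to 9.78, a difference of -2.77 (6.83-fold lower) and the 7th lowest of 11342 measured genes. Tnnt2 went from 10.91 to 8.05, a difference of -2.86. The second Actc1 probe went from 12.44 to 7.81, a difference of -4.63. Tnni3 was at -1.44 and Myh6 at -1.14. On the MCSE array Tnnt2, Tnni3, Myh6 and the second Actc1 probe lay below the median of all probes, where no detection call was used, so the size of their differences is uncertain. These 4 differences exceeded the SD per probe of 0.611.

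Of the 8 cardiac-type genes measured on the liver label, 4 were at least 2-fold lower and 0 higher, where 6.01% and 8.27% of measured genes were. With a brightness trend removed by lowess, Gata4 passed 2-fold (1.02), giving 4 lower and 1 higher. The genes were chosen with this contrast known. Tnnt2, Tnni3, Myh6 and Mybpc3 passed the filter on dim probes through the PBS array alone, and Ryr2 through the MCSE array alone. Nothing is therefore read from the count. Over all 10 genes the median was -0.44, against -0.02 over all 16675 genes.

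The regulator and the calcium channel lay on the other side. Gata4 was at 0.99 and Ryr2 at 0.91 on their brighter probes, just under 2-fold, and the dim second probes gave -0.06 and -0.16. Mybpc3 (-0.48) and Myl4 (-0.29) lay within the SD per probe, and neither Myl7 nor Nppb was measured there.

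Other muscle genes were lower on the liver label too. Mb, the oxygen-binding protein of heart and red muscle, went from 12.54 to 8.40, and Myl3, the slow and ventricular essential light chain, from 12.03 to 9.14. Of 7 measured slow-fibre genes 5 were at least 2-fold lower (median -1.24), and of 12 measured shared sarcomere genes 5 were lower and 1, Ankrd1 at 1.00, was higher. Of 14 measured fast-fibre genes 1 was lower, Tnnc2 at -1.26, and 1 was higher, Ryr1 at 2.11 on its representative probe and at 0.12 and -0.25 on the other 2 (list median -0.12). Of 10 measured calcium-handling and conduction genes 5 were lower and 0 higher (median -0.95), with Pln at -1.74. Over all measured genes 6.01% were lower and 8.27% higher by 2-fold. Casq2, Myoz2, Mb and Pln passed the filter on dim probes through the PBS array alone, and Ankrd1 and Ryr1 through the MCSE array alone. The lists were also drawn up with results known, so nothing is read from these counts.

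Markers of other cells differed on the same pair. Of 11 measured kidney genes 8 were at least 2-fold higher (median 1.22) and 0 were lower, and of 11 hepatocyte genes 1 was higher and 1 lower (median 0.00). Alas2, the heme synthesis enzyme of red cell precursors, went from 11.89 to the floor, whereas Slc4a1, the anion exchanger of red cells, was at 0.06. These lists too were chosen with results known, so nothing is read from their counts. The part of these cells in the lower sarcomere genes was not tested.

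On the adipose label 7 of the 9 measured cardiac-type genes were at least 2-fold lower with MCSE and 0 were higher, but 34.3% of measured genes were lower and 37.5% higher on this pair, whose arrays had little in common. The members were chosen with the PBS adipose levels known, and Tnnt2, Tnni3, Mybpc3, Myh6 and Nppb passed the filter through that array alone, so nothing is read from the count. Actc1 was at -4.95, Tnnt2 at -4.32, Tnni3 at -4.23, Mybpc3 at -2.52, Myh6 at -2.48, Gata4 at -2.20 and Nppb at -1.14, against an SD per probe of 1.74. Myl4 was at -0.21 and Ryr2 at 0.02, and both changed sign with lowess (0.57 and -0.27). The second probes gave -6.89 for Actc1, -1.46 for Ryr2 and -0.02 for Gata4, the last at or near the floor. Over all 10 genes the median was -2.34. On the same pair proteasome genes had a median of 3.60 and white adipocyte genes 4.83, with 25 of 28 and 9 of 10 at least 2-fold higher, and the part of the difference between these 2 arrays that concerns all genes was not tested.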

How the data were processed

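Per the labels' protocols, RNA was amplified as aRNA and carried a single dye, Cy5. The authors deposited normalized intensity values on a linear scale (29922 probes, 6 columns); limma is named in the submitters' processing notes without a role or version. For background correction, normalization and build, the entry is "not given in the sources used here". Sorted values of the columns differed from their median by at most 0.038 on the log2 scale, so the arrays share 1 distribution.

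Groups came from the sample titles. The floor was the 5th percentile of all values (214.3), set before log2. The probe with the highest mean log2 level stood for its gene, and its difference was log2 MCSE minus PBS, counted from 2-fold on. No significance test was made, since each group held 1 array, and their number limits the precision. The platform annotation named 21020 probes. Of 219 list symbols, 2 were matched through RefSeq synonyms and 14 were not found. The members, the 18 other lists and the rule for naming genes were chosen with earlier results of these data known. The rule took all member probes, all paralogues, up to 4 list genes furthest past 2-fold, and the 8 genes of most similar profile. Marker levels, list genes that did not pass 2-fold or were not among those furthest past it, and second probes of list genes were chosen for mention with their values known. The counting of genes past 2-fold was tested on simulated data, with little noise and shifts well past 2-fold in bright genes. That test does not speak to differences near 2-fold or to dim probes. Alternatives were no floor, 32 added before log2, quantile normalization, centring, lowess (fraction 0.3), the mean over probes, other filters on dim probes, and 1.5-fold and 3-fold thresholds. Python 3.11.15, numpy 2.4.6, pandas 2.3.3, statsmodels 0.14.6 and matplotlib 3.10.9 were used.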

Additional observations from a re-analysis of the deposited data

Results flagged for a closer look

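For 2 members measured on both labels, MCSE minus PBS had opposite signs in muscle and on the liver label. Myl4 had 0.56 for muscle against -0.29 for liver, and Ryr2 -0.22 for muscle against 0.91 for liver. Each value compares 1 array with 1 array, and the difference between the labels was not tested. The second Ryr2 probe gave -0.72 in muscle and -0.16 on the liver label, so the opposite signs of Ryr2 rest on 1 of its 2 probes. The Myl4 value on the liver label and the Ryr2 value in muscle lay within the SD per probe. On its brighter probe Ryr2 was measured on the liver label through the MCSE array alone (9.74, against 8.83 with PBS).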

How the results depend on the processing

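No paired analysis was possible because each group held 1 array and no test was made. Thresholds of 1.5-fold and 3-fold were also used in place of 2-fold. The members brightest on the PBS adipose array then numbered 5 and 0 in place of 1. Over all 13862 measured genes, 3999 and 1294 were brightest there, in place of 2783. In muscle 4 and 1 members passed in place of 2, where 1863 and 176 of 10711 genes did. On the liver label 1.5-fold gave 6 members, 4 lower and 2 higher, where 4368 of 11342 genes passed. There 3-fold left 2 members in place of 4, where 389 genes passed. When probes had to reach the upper quartile, 5 members in place of 8 were measured on the liver label, and their median was -1.44 in place of -0.81. Ryr2 was not among these 5, nor among the 7 measured there when probes were averaged. Averaging probes moved Actc1 on the liver label from -2.77 to -3.70, Gata4 from 0.99 to 0.47 there and from -2.20 to -1.11 on the adipose label, Ryr2 from -0.22 to -0.47 in muscle and from 0.02 to -0.72 on the adipose label, and the muscle median from -0.22 to -0.34. Lowess made 5 members pass 2-fold on the liver label (4 lower and 1 higher, Gata4 at 1.02) and turned the adipose values of Myl4 to 0.57 and of Ryr2 to -0.27. Quantile normalization, no floor, an added 32 and centring left the member counts past 2-fold as they were, in each direction. The arrays already shared 1 distribution, and no representative member probe lay at the floor. Apart from the added 32, these alternatives could therefore change little, and nothing is concluded from the unchanged counts. With the MCSE adipose and MCSE liver arrays exchanged, an alternative chosen after seeing the data, 4 members were 2-fold lower on the liver label and 7 on the adipose label (median -2.24). The second Gata4 probe, at 7.74 to 7.85 on all arrays, had little room to show a lower level.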
